A study of Homo sapiens with 30 samples.

Results

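The 20 arrays described here are those hybridised 30 min, 1 h, 3 h and 6 h after the start of treatment with recombinant human BMP7, out of 30 in the series. They were chosen by time label alone, so that the later phase of the early response (3 and 6 h, 10 arrays) could be set against the first hour (30 min and 1 h, 10 arrays) in all 5 breast cancer cell lines. The lines are HCC1954, MDA-MB-231, MDA-MB-361, T-47D and ZR-75-30, and each has 1 array at each time. On every array the RNA of cells given BMP7 carried Cy5 and the RNA of cells of the same line and time given vehicle carried Cy3. The cells of 3 cultures were pooled before RNA extraction and no hybridisation was repeated or run with the dyes exchanged. A value for one line and time has therefore no replicate of its own, and the p-values below rest on the spread over lines and over the neighbouring time of the same phase. The quantity reported is the log2 ratio of BMP7 over vehicle, and its change is the mean of the 3 and 6 h arrays minus the mean of the 30 min and 1 h arrays, with cell line as a block. The RNA is of whole cultures, so a response of all cells and a stronger one of a part of them cannot be told apart. A dye effect that stays the same for a probe is contained in the level of its ratio and cancels in the change.

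BMP7 is a secreted ligand of the TGF-beta superfamily. It binds type I and type II serine/threonine kinase receptors, which phosphorylate SMAD1, SMAD5 and the product of SMAD9 (also called SMAD8). These form complexes with SMAD4, enter the nucleus and bind short DNA elements near their target genes. The ID genes, which encode helix-loop-helix proteins that lack a DNA-binding domain and hold back other transcription factors of that family, are known as direct targets in many cell types. The inhibitory SMADs (SMAD6 and SMAD7) and the pseudoreceptor BAMBI are known as feedback inhibitors of the same pathway.

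The promoters of ID1, ID2 and ID3 are shown because probes of these genes or beside them lead the change described next. Each run holds 250 bases before the annotated start and 50 bases after it, 5′ to 3′ on the strand of the gene (RefSeq, build GRCh38.p14). Capitals mark GTCT, the core of the SMAD-binding element, or its reverse complement AGAC.
ID1 promoter (chr20:31605039-31605338, plus strand): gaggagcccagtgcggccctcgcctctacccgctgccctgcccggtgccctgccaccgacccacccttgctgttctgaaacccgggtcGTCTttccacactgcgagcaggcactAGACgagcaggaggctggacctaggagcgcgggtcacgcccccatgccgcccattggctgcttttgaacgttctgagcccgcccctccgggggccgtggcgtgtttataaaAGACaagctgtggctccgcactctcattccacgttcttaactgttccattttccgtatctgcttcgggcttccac
ID2 promoter (chr2:8681806-8682105, plus strand): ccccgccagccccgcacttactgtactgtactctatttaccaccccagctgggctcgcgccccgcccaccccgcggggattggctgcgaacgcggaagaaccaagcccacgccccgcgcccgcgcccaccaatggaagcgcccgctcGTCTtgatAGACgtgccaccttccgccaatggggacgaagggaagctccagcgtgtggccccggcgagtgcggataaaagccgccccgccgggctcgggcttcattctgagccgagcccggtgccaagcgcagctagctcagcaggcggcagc
ID3 promoter (chr1:23559452-23559751, minus strand): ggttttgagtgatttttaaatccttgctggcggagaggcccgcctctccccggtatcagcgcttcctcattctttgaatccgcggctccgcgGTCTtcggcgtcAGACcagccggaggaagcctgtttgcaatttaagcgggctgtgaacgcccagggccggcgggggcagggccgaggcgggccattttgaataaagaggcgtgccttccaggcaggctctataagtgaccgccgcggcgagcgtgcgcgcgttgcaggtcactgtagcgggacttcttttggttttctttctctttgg
The ID1 window holds 3 such matches, which begin at positions -162, -136 and -25 from the start site (counted as 0). The ID2 window holds 2, at -103 and -95, and the ID3 window holds 2, at -158 and -146. In each of the 3 windows a GTCT is followed by an AGAC. The motif is common, since 84.0% of the 35116 promoters in the table hold it on either strand. GGCGCC, a GC-rich element bound by SMAD1 and SMAD5, is in 19.2% of all promoters and in none of these 3 windows, and the composite in which GGCGCC is followed after 5 bases by GTCT is in 0.103% of all promoters and in none of them. CANNTG, the E-box, is in 68.7% of all promoters and in the ID2 window alone among the 3. Of the 22 genes made up of the BMP target list and DUSP2, 18 had a promoter in the table, and their first listed promoter held GTCT in 15, CANNTG in 11, GGCGCC in 4 and the composite in none. These are matches of letters and were not tested for binding.

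The share of probes with both channels well above background was 53.8% to 68.3% per array. Of 41000 probes, 21761 were usable on 1 or more arrays of both phases in each of the 5 lines and were tested. All 5 epithelial markers (KRT8, KRT18, KRT19, EPCAM and CDH1) were above background in the vehicle channel on 20 of 20 arrays. Of the 16 markers of fibroblasts, leukocytes and endothelium, PTPRC, COL1A2 and DCN were so on 0 of 20, CD14 on 20, CD3E on 19, and the other 11 on 1 to 14. Of the line markers, VIM was highest in MDA-MB-231, ESR1 in MDA-MB-361 and T-47D, and ERBB2 in MDA-MB-361, HCC1954 and ZR-75-30. The ZR-75-30 6 h array stood apart, with 2218 usable probes changed at least 2-fold against 12 to 657 on the other 19 arrays. Counts of calls and the values of several BMP targets are therefore also given without it. The MDA-MB-231 6 h array differed in quality, with 6.32% of spots marked as outliers against 0.24% to 0.67% on the other 19 arrays. Its median vehicle signal was 28.9, against 63.6 to 135 on the others. The comparison was not repeated without the MDA-MB-231 6 h array alone. In all, 9 slides carried the 20 arrays. The arrays were split by the month of their scan date, up to July or later, into 2 groups. These groups are called scan occasions or scan batches here, and whether each was 1 scanning session was not tested. The second occasion held 6 arrays, 3 of each phase.

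From the first hour to 3 to 6 h, the BMP7 response rose at probes of ID2 and ID3 and at unnamed probes beside ID1 and ID3. Among 21761 tested probes, 5 passed an adjusted p of 0.05 (limma, Benjamini-Hochberg), and each of the 5 was higher at 3 to 6 h in 5 of 5 lines. They are both probes of ID2, the probe of ID3 and a pair of probes that carry no gene symbol in the files but lie beside the ID1 and ID3 probes. These calls are 0.023% of the tested probes. No probe fell (0%), although 2731 (12.5%) were lower and 2458 (11.3%) higher at an unadjusted p under 0.05. The median change over all tested probes was 0.0090 and the median absolute change 0.101 on the log2 scale.

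**Figure D1:**
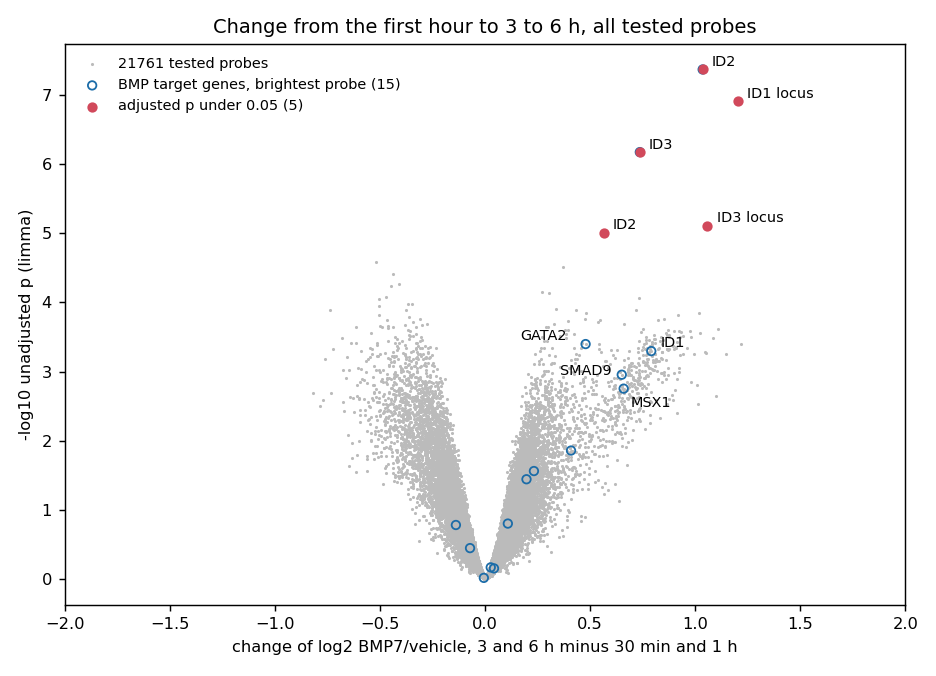
Change of the log2 BMP7/vehicle ratio (horizontal axis, 3 and 6 h minus 30 min and 1 h) against the unadjusted p of limma on a -log10 scale for the 21761 tested probes (grey), with the 15 tested BMP target genes ringed in blue and the 5 probes past an adjusted p of 0.05 in red. The 5 red points, with changes of 0.56 to 1.20, lie above the grey cloud, and ID1, GATA2, SMAD9 and MSX1 lie within its upper right part.

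The probe A_32_P69368 of ID2 had log2 ratios in the first hour, as 30 min and then 1 h, of 0.05 and 0.26 in HCC1954, 0.11 and 0.90 in MDA-MB-231, -0.01 and 0.32 in MDA-MB-361, 0.15 and 0.45 in T-47D, and 0.13 and 0.41 in ZR-75-30. At 3 h and then 6 h, they were 1.39 and 1.23 in HCC1954, 1.41 and 1.08 in MDA-MB-361, 1.06 and 0.77 in T-47D, and 1.24 and 1.14 in ZR-75-30. In MDA-MB-231 the ratio was 2.07 at 3 h, and the 6 h array gave no usable value. The later arrays thus lay above the first-hour arrays within every line, and over all lines the only overlap was the 0.90 of MDA-MB-231 at 1 h, which exceeded the 0.77 of T-47D at 6 h. The change was 1.04 ± 0.12 (SE, 19 arrays), a 2.05-fold higher ratio, with an adjusted p of 9.4e-04 from limma over all tested probes. By line it ranged from 0.62 in T-47D to 1.57 in MDA-MB-231. The second ID2 probe, A_23_P143143, changed by 0.56 ± 0.10 (SE, 20 arrays, limma adjusted p = 0.0429), from 0.25 in T-47D to 0.77 in ZR-75-30. The pair lies on chromosome 2 (hg18), at 8741733 to 8741792 and at 8740093 to 8740481, and gave the same direction and call with different sizes.

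ID3 (A_23_P137381, hg18 chromosome 1, 23758253 to 23758312) was read at 30 min and 1 h as -0.07 and 0.26 in HCC1954, 0.10 and 0.48 in MDA-MB-231, -0.03 and 0.57 in MDA-MB-361, -0.12 and -0.25 in T-47D, and -0.06 and 0.32 in ZR-75-30. At 3 and 6 h it was 1.15 and 0.87 in HCC1954, 1.46 and 0.84 in MDA-MB-231, 1.18 and 1.21 in MDA-MB-361, 0.25 and 0.41 in T-47D, and 0.63 and 0.58 in ZR-75-30. T-47D was the lowest line in both phases, and its later arrays overlapped the 1 h arrays of the other lines. The change was 0.74 ± 0.10 (SE, 20 arrays, limma adjusted p = 0.0049), with 0.47 in ZR-75-30 and 0.51 in T-47D at one end and 0.91 in HCC1954 and 0.92 in MDA-MB-361 at the other.

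ID1 had 1 named probe (A_23_P252306, hg18 chromosome 20, 29657819 to 29657878), which gave 0.11 and 0.08 at 30 min and 1 h in HCC1954, 0.09 and 1.06 in MDA-MB-231, -0.35 and 0.57 in MDA-MB-361, 0.08 and 0.22 in T-47D, and 0.29 and 0.31 in ZR-75-30. At 3 and 6 h the values were 1.32 and 1.09 in HCC1954, 1.91 and 0.54 in MDA-MB-231, 1.47 and 1.89 in MDA-MB-361, 0.69 and 0.29 in T-47D, and 0.41 and 0.77 in ZR-75-30. The groups overlapped, through the high 1 h value of MDA-MB-231 and the low later values of T-47D and ZR-75-30. The change of 0.79 ± 0.19 (SE, 20 arrays) was positive in 5 of 5 lines but did not pass the threshold (limma adjusted p = 0.0577). It ranged from 0.29 in ZR-75-30 to 1.57 in MDA-MB-361, a wider spread than that of ID3.

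The largest change among the 5 called probes was that of A_32_P149011, which lies on hg18 chromosome 20 at 29657031 to 29657090, 728 bases from the ID1 probe. Its ratio at 30 min and 1 h was -0.65 and -0.58 in HCC1954, -0.23 and 0.95 in MDA-MB-231, 0.23 and 0.60 in MDA-MB-361, -0.32 and -0.22 in T-47D, and -0.38 and -0.52 in ZR-75-30. At 3 and 6 h it was 0.92 and 0.85 in HCC1954, 1.51 and 1.75 in MDA-MB-361, 0.03 and 0.51 in T-47D, and 1.13 and 1.17 in ZR-75-30, and it was 1.52 at 3 h in MDA-MB-231. The change was 1.20 ± 0.14 (SE, 19 arrays, limma adjusted p = 0.0014), or 2.30-fold. The other unnamed probe, A_32_P123589, lies on hg18 chromosome 1 at 23757351 to 23757410, 842 bases from the ID3 probe, and changed by 1.06 ± 0.16 (SE, 17 arrays, limma adjusted p = 0.0424). Its values were spread widely between lines, from -0.92 to 1.31 in the first hour and from -0.14 to 1.90 at 3 to 6 h. The files give both unnamed probes on the strand opposite to that of the neighbouring ID probe, whereas 99.3% of 13795 tested probes with a gene symbol lie on the strand RefSeq gives for that gene. Which transcript these 2 probes read was not tested.

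**Figure D2:**
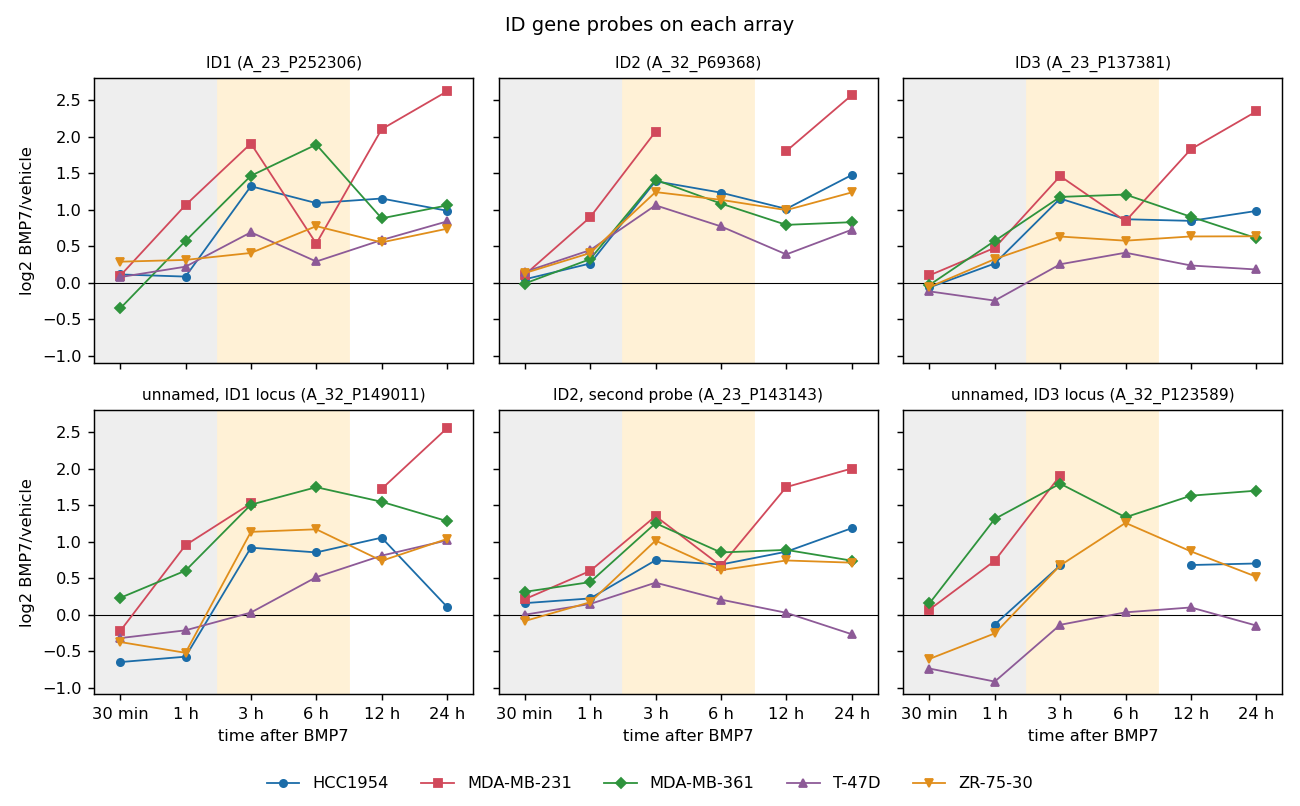
Log2 BMP7/vehicle ratio (vertical axis) at each time (horizontal axis, not to scale) for the 6 probes of the ID1, ID2 and ID3 loci, 1 line per cell line and 1 point per array, with the first hour shaded grey and 3 to 6 h shaded yellow. Breaks are arrays without a usable value. In every panel the 3 h points lie above the 30 min points of the same line where both were read, and T-47D is the lowest or second lowest line at 3 and 6 h.

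Averaged over the lines, the ratio of ID2 (A_32_P69368) was 0.08 ± 0.07 at 30 min, 0.47 ± 0.25 at 1 h and 1.43 ± 0.38 at 3 h (SD, n = 5). That of ID3 was -0.03 ± 0.08, 0.28 ± 0.32 and 0.93 ± 0.48 at the same times, and that of ID1 0.04 ± 0.24, 0.45 ± 0.39 and 1.16 ± 0.60 (SD, n = 5 each). Most of the difference between the phases thus lay between 1 h and 3 h, and values at 1 h were already higher than those at 30 min in 5 of 5 lines for ID2. At 6 h the means were 1.06 ± 0.20 for ID2 (SD, n = 4), 0.78 ± 0.31 for ID3 and 0.92 ± 0.62 for ID1 (SD, n = 5). In the test of 6 h against 3 h, no probe passed the threshold (0%, limma), and 794 of 21761 had an unadjusted p under 0.05. For ID2 (A_32_P69368) that difference was -0.29, for the second ID2 probe -0.36 and for ID1 -0.24, none past the threshold. At 12 and 24 h, which the comparison did not use, ID1 averaged 1.06 ± 0.63 and 1.25 ± 0.78 and ID3 0.89 ± 0.59 and 0.95 ± 0.83 (SD, n = 5). The highest values of the course were in MDA-MB-231 at 24 h, with 2.62 for ID1, 2.57 for ID2 and 2.35 for ID3.

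A ratio can change through either channel, so the channels were read separately, as log2 signal relative to each array's median. Unlike in the ratios, spots not well above background were kept here, and only outlier spots were left out. The vehicle signal of ID2 (A_32_P69368) was lower at 3 to 6 h than in the first hour by an average of -0.81 ± 0.56 (SD, n = 5) and in 5 of 5 lines, while its BMP7 signal moved by 0.18 ± 0.39 and was higher in 3 of 5. The second ID2 probe (A_23_P143143) differed, with a vehicle change of -0.27 ± 0.74, positive in 1 of 5 lines. Its BMP7 change was 0.29 ± 0.67, positive in 4 of 5. For ID1 the vehicle change was -0.50 ± 0.54, negative in 5 of 5 lines, and the BMP7 change 0.29 ± 0.41, positive in 4 of 5. The probe beside ID1 showed the same pattern, with -0.93 ± 0.61 in the vehicle channel and 0.30 ± 0.37 in the BMP7 channel. For ID3, by contrast, the vehicle change of -0.33 ± 0.74 was positive in 2 of 5 lines, and the BMP7 change was 0.40 ± 0.59. The probe beside ID3 moved mainly in the BMP7 channel (0.89 ± 0.34, positive in 5 of 5 lines, against -0.16 ± 0.67 in the vehicle channel). These are descriptions across arrays, which carry the differences in labelling and scanning between arrays that a ratio does not.

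**Figure D3:**
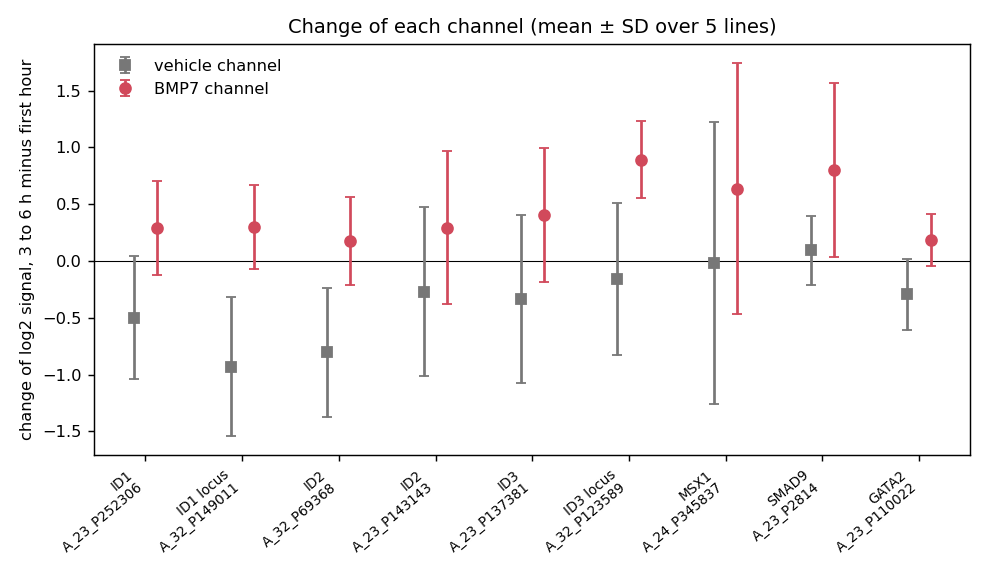
Change of the log2 signal from the first hour to 3 to 6 h in the vehicle channel (grey squares) and the BMP7 channel (red circles) for 9 probes, as mean ± SD over 5 cell lines. Spots not well above background were kept. The vehicle mean is below 0 for every probe of the ID loci, and for SMAD9 the BMP7 mean is 0.80 while the vehicle mean is 0.09.

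Of the 21 genes of the BMP target list, 15 were tested. ID2 and ID3 rose, none fell and 13 did not pass the threshold. The median change of the 15 was 0.23 against 0.0090 for all tested probes. A positive change was found in 12, against 52.4% of all tested probes. At an unadjusted p under 0.05, 9 were higher and 0 lower, against 11.3% and 12.5% of all tested probes. In 7 of the 15 the change was positive in each of the 5 lines and in none negative in each, where 9.48% of all tested probes were positive and 9.52% negative in each line. With normexp and median scaling, 8 of the 15 were positive and their median was 0.20, against -0.12 for all tested probes. The list was made up of genes known as BMP targets, with earlier results of these data in view, so its direction is not independent evidence.

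Several transcription factors of the list stood near the threshold. MSX1, a homeobox factor, changed by 0.66 ± 0.18 (SE, 19 arrays, limma adjusted p = 0.0627) and was positive in 5 of 5 lines, from 0.11 in MDA-MB-361 to 1.60 in ZR-75-30. Without the ZR-75-30 6 h array, where its ratio was 1.85, the change was 0.49 (adjusted p = 0.0653). GATA2, a zinc finger factor, changed by 0.48 ± 0.11 (SE, 20 arrays, limma adjusted p = 0.0577), with 0.82 in T-47D, 0.80 in ZR-75-30 and 0.20 to 0.32 in the other 3 lines. Its second probe gave 0.49 but was positive in 3 of 5 lines. SMAD9 changed by 0.65 ± 0.16 (SE, 17 arrays, limma adjusted p = 0.0601), from 0.08 in HCC1954 to 1.62 in MDA-MB-361. It could not be tested without the ZR-75-30 6 h array, because the 3 h array of that line gave no usable value. Its mean log2 vehicle signal was 5.41, against 6.91 for MSX1 and 7.86 for GATA2. Over 22 alternatives the change of SMAD9 lay between 0.25 (normexp and loess, limma adjusted p = 0.115) and 0.83 (without HCC1954). In MDA-MB-361 its ratio was -0.34 at 30 min, 1.08 at 3 h and 1.48 at 6 h.

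HEY1, a transcriptional repressor also induced by Notch, changed by 0.41 ± 0.15 (SE, 18 arrays) and DLX2, a homeobox factor, by 0.23 ± 0.10 (SE, 18 arrays). Both were below 0 in MDA-MB-231, and DLX2 was also below 0 in HCC1954. BAMBI changed by 0.20 ± 0.09 (SE, 19 arrays), positive in 5 of 5 lines, and MSX2 by 0.11 ± 0.07 (SE, 20 arrays). Adjusted p-values of these 4 genes from limma were 0.118 or higher. With normexp background correction and median scaling, which moved the median change of all tested probes to -0.12, BAMBI and MSX2 were at -0.00073 and -0.02.

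The remaining tested targets had a change near 0. SMAD7, the inhibitory SMAD, changed by -0.01 ± 0.10 (SE, 20 arrays), with 0.31 in MDA-MB-361 and -0.22 in T-47D at the ends. Its mean ratio was 0.20 in the first hour and 0.20 at 3 to 6 h, neither level past the threshold (limma adjusted p = 0.0552 and 0.0619). These means hide a course within each phase. The ratio averaged 0.03 ± 0.14 at 30 min, 0.37 ± 0.16 at 1 h, 0.34 ± 0.15 at 3 h and 0.05 ± 0.15 at 6 h (SD, n = 5). The difference between 6 h and 3 h was -0.29, not past the threshold. GATA3 changed by 0.04 ± 0.11, PMEPA1 by 0.03 ± 0.06 and RUNX2 by -0.14 ± 0.10 (SE). HES1, a Notch and BMP target, had a first-hour ratio above 0, at 0.16 for its brightest probe (limma adjusted p = 0.0493). In such a level a constant dye effect and a response to BMP7 cannot be told apart. The first-hour level of 17.8% of all tested probes was called in either direction. The 3 probes of HES1 changed by -0.07, -0.11 and -0.21, none past the threshold. ID4, SMAD6, TBX2, TBX3, DLX3 and ATOH8 were not tested, since none of their probes was usable in both phases of every line (12 to 17 of 20 arrays usable per probe).

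DUSP2, a phosphatase that inactivates MAP kinases, changed by 0.47 ± 0.13 (SE, 20 arrays, limma adjusted p = 0.0655). Its ratio at 3 and 6 h was 1.48 and 1.63 in MDA-MB-361, 0.62 and 0.91 in ZR-75-30, 0.11 and 0.35 in T-47D, 0.03 and 0.06 in HCC1954 and -0.17 and -0.18 in MDA-MB-231. The change was thus largest in MDA-MB-361 (1.15) and negative in MDA-MB-231 (-0.18). Its second probe gave 0.60 and was likewise highest in MDA-MB-361 and negative in MDA-MB-231.

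**Figure D4:**
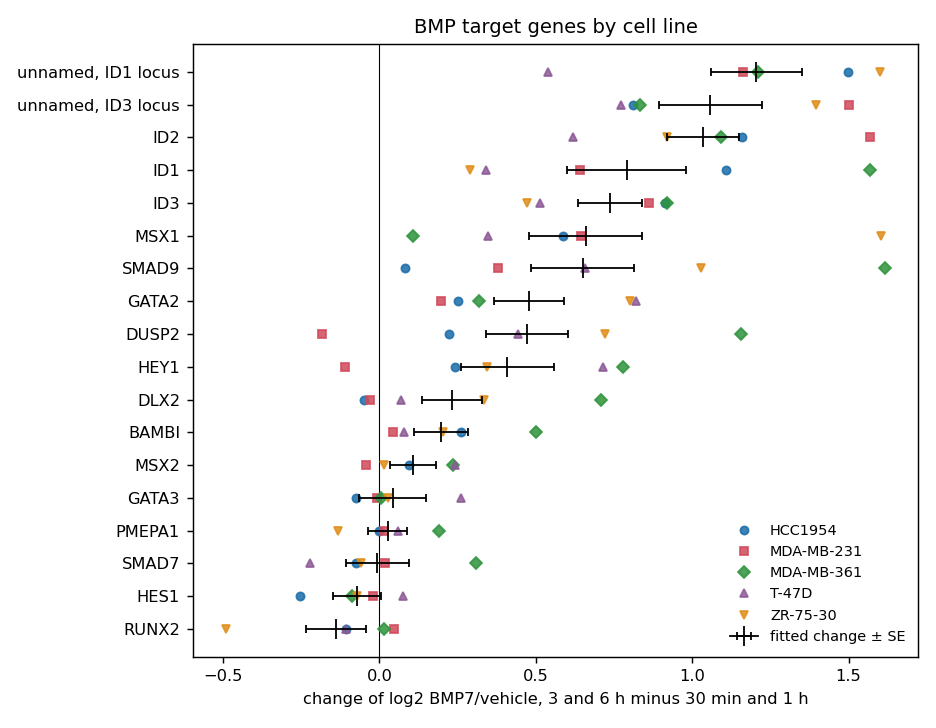
Change of the log2 BMP7/vehicle ratio from the first hour to 3 to 6 h (horizontal axis) in each of the 5 cell lines (coloured symbols) and as fitted over all lines with its SE (black), for the 15 tested BMP target genes, DUSP2 and the 2 unnamed probes beside ID1 and ID3. All 5 lines lie above 0 for the ID loci, MSX1, SMAD9, GATA2 and BAMBI, and the lines that lead differ between genes.

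The difference of the change between lines was tested for every probe by the interaction of line and phase, and 1 probe passed (0.0046%, limma). It reads HSPB9, a small heat shock protein gene, and its change was 2.92 in ZR-75-30, 1.09 in T-47D, 0.55 in HCC1954, 0.37 in MDA-MB-231 and 0.06 in MDA-MB-361 (interaction adjusted p = 0.0134). In ZR-75-30 the 3 h array gave no usable value, so the later phase of that line was the 2.62 of its 6 h array alone, and without that array the probe could not be tested and no probe passed. The different orders of lines for ID1, SMAD9, MSX1 and DUSP2 did not pass this test (interaction adjusted p = 0.998, 0.539, 0.757 and 0.330), and 1373 of 21761 probes had an unadjusted interaction p under 0.05.

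The level of the ratio within each phase gave a different picture from its change. At 3 to 6 h, 3895 probes (17.9%) had a mean ratio other than 0 by limma, 1904 above and 1991 below. In the first hour there were 3884 (17.8%), 1792 above and 2092 below. Of these, 1178 were called in the same direction in both phases, which is 30.2% of the later calls and 30.3% of the first-hour calls, and 20 in opposite directions. With normexp background correction and median scaling the split was 492 above and 6 below at 3 to 6 h, and 5622 above and 58 below in the first hour. A constant dye effect of a probe and an early response to BMP7 cannot be told apart in these levels. At 3 to 6 h, 9 of the 15 tested BMP targets had a ratio above 0 and 0 below (ID1, ID2, ID3, GATA2, SMAD9, MSX1, MSX2, HEY1 and DLX2). In the first hour ID2 and HES1 were above 0 and none below. The largest of these later levels were 1.31 ± 0.08 for ID2 (2.48-fold) and 1.04 ± 0.13 for ID1 (2.05-fold; SE, limma adjusted p = 1.3e-07 and 1.2e-04), followed by 0.86 ± 0.07 for ID3.

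Genes that receive or limit the signal were read from lists of the same kind. Of 20 receptors and SMAD mediators, 15 were tested, none passed in either direction and their median change was -0.02. SMAD4, the common partner of the receptor-activated SMADs, had the most negative change, -0.41 ± 0.10 (SE, limma adjusted p = 0.0577), negative in 5 of 5 lines. The type I receptor gene ACVR1 changed by -0.31 and SKI, a corepressor of SMADs, by 0.29, each with 1 sign in 5 of 5 lines and neither past the threshold. Of 23 ligands and secreted antagonists, 10 were tested, none passed, and the median was 0.02. BMP8A, a ligand, had the largest value, 0.76 ± 0.19 (SE, limma adjusted p = 0.0590). By line its change was 1.84 in ZR-75-30, 1.41 in T-47D, 0.44 in MDA-MB-231, 0.28 in HCC1954 and 0.05 in MDA-MB-361. The mean log2 vehicle signal of its probe was 15.6. BMP7 itself, NOG, GREM1 and FST were not tested for want of usable spots.

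No member passed the threshold in the other 15 pathway lists. Their medians lay between -0.11 for 12 interferon-stimulated genes and 0.13 for 9 Notch pathway genes. In the interferon list 10 of 12 changes were negative, where 52.4% of all tested probes had a positive change. At an unadjusted p under 0.05, 2 of the 12 were lower, against 12.5% of all tested probes. Among 24 proliferation genes the median was -0.02, and 4 were lower at an unadjusted p under 0.05, a share near the 12.5% of all tested probes. Among 17 immediate early genes, MYC had the largest change, -0.44 ± 0.11 (SE, limma adjusted p = 0.0577), and was negative in 5 of 5 lines, while FOS and JUN were at -0.03 and 0.15. Among 11 ERK feedback genes, DUSP1 changed by -0.28 and DUSP2 by 0.47. The 11 TGF-beta targets had a median of 0.02 and the 10 EMT and adhesion genes 0.03.

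**Figure D5:**
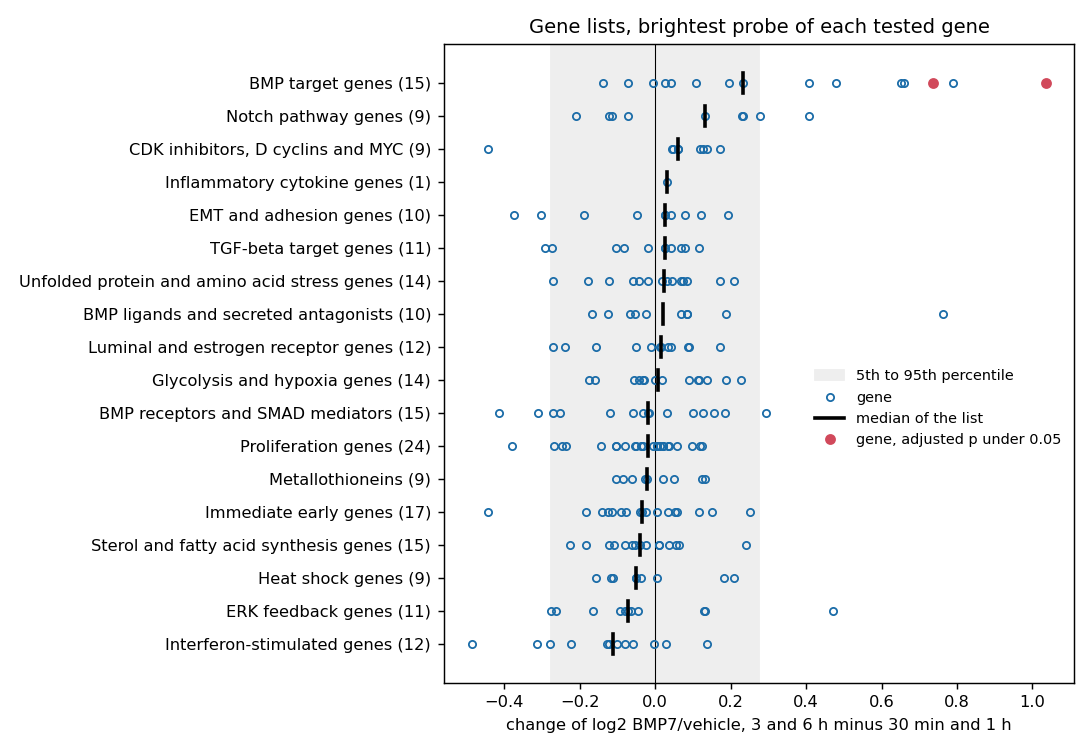
Change of the log2 BMP7/vehicle ratio from the first hour to 3 to 6 h (horizontal axis) for the tested genes of 18 lists (number tested in brackets), with the median of each list as a black bar and the band of the 5th to 95th percentile of all tested probes (-0.277 to 0.276) in grey. The BMP target genes have the highest median, 0.23, and the 2 red points past an adjusted p of 0.05, ID2 and ID3, belong to that list.

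The 5 called probes were followed by a broad shelf of probes just short of the threshold. A total of 307 probes shared the adjusted p of 0.0577 that ID1 and GATA2 have, and 390 were under 0.06, 219 higher and 171 lower at 3 to 6 h. Whether these are called depends on the set of probes tested. Among the 16365 probes usable on all 20 arrays, 177 rose (1.08%) and 117 fell (0.715%), and the shared adjusted p was 0.0477. ID1, ID2, ID3 and GATA2 of the 9 BMP targets tested there rose and none fell, and SMAD4, MYC and CCNE2 were the members of the other lists that passed, all 3 lower. Over all tested probes, the arrays of the 2 phases were apart without overlap for 0 probes in the higher direction (0%) and for 1 in the lower direction (0.0046%).

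Among those 294 probes, the genes with the largest changes of 1 sign in all 5 lines were named after their values had been seen. The rises were led by NEUROG3 (1.22 ± 0.28), ZNF575 (1.11 ± 0.24), CKB (1.02 ± 0.23), GPR20 (0.99 ± 0.24) and NPAS3 (0.98 ± 0.22). NEUROG3 and NPAS3 encode transcription factors and CKB encodes brain-type creatine kinase. Most of these went from below 0 in the first hour to above 0 later, with NEUROG3 at -0.71 and then 0.51. The falls were led by GNA13 (-0.74 ± 0.15), AP1AR (-0.64 ± 0.15), PKP2 (-0.61 ± 0.14) and PTGER4 (-0.61 ± 0.13; SE, limma adjusted p = 0.0477 for each gene of this paragraph). GNA13 encodes a G protein alpha subunit, PKP2 a desmosomal plaque protein and PTGER4 a prostaglandin E2 receptor. GNA13 stood at 0.39 in the first hour and -0.35 at 3 to 6 h.

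Without the ZR-75-30 6 h array, 3 of the 5 calls were kept and no other was made: ID2 (A_32_P69368) at 1.05, ID3 at 0.76 and the probe beside ID1 at 1.17. The other ID2 probe (0.58) and the probe beside ID3 (0.98) then had an adjusted p of 0.0553 (limma). ID1 (0.80), GATA2 (0.51), DUSP2 (0.43), HEY1 (0.32) and DLX2 (0.20) were positive and not past the threshold. Of 20888 probes, 2785 then had a level other than 0 at 3 to 6 h and 5210 in the first hour. NEUROG3, GNA13, SMAD4, MYC and BMP8A were not read without this array. With the scan occasion as a further term, the 5 calls were kept. Among the 14 arrays of the first occasion alone, ID2 (0.93) and the probe beside ID1 (1.15) passed, and ID3 was 0.74 and ID1 0.86. Among 4 arrays of MDA-MB-231 and ZR-75-30 on the second occasion, ID3 was 0.69, ID1 0.46 and the second ID2 probe 0.58, with no probe past the threshold. Each of the 5 called probes had a positive change under every alternative in which it was tested. Leaving out HCC1954 left 0 of these 5 calls. Without the 3 h arrays only 2 of the 5 probes could be tested, and 0 passed. Leaving out MDA-MB-361 kept all 5 and gave 713 calls in all. The 5 calls also depended on counting the 2 times of a phase as separate arrays. With 1 difference per line, 0 probes passed and each of the 5 had an adjusted p of 0.171 (limma).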

How the data were processed

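The 20 Agilent Whole Human Genome arrays of 30 min to 6 h, 1 per cell line and time, were read as deposited (feature extraction output). Per the file headers, Feature Extraction 9.5.1.1 was used with probe positions on hg18. The log10 ratios in these files were made by the authors with that software after background correction and dye normalization, and both channels' intensity values were deposited beside them. The authors also deposited a table of log2 ratios, which followed the scanner ratios of the 20 arrays with a slope near 1 and correlations of 0.825 to 0.997 and had a median of 0 on each array, and which was used as an alternative. Flags for outliers and for signal above background came from the same files.

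Log10 ratios of BMP7 (Cy5) over vehicle (Cy3) were changed to log2. Spots of controls and spots marked as outliers were dropped, each array's median was set to 0, spots not well above background in both channels were treated as missing, and spots of a probe were averaged. A probe was tested where each of the 5 lines had a usable array in both phases, so 5396 of the 21761 tested probes lacked 1 or more arrays. Probes were named through accessions and symbols matched to RefSeq (27745 of 41000). The fits used limma 3.58.1 in R 4.3.3, with Benjamini-Hochberg adjustment over all tested probes and a threshold of 0.05, and were tested on simulated data. Figures used Python 3.11.15. Precision is limited by how many arrays there are and by their signal over background.

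A gene was read from its tested probe with the brightest mean vehicle signal. The genes named were the BMP target list with DUSP2, called probes with 1 sign in all lines (up to 12 in each direction), up to 3 called members of each other list, and probes past the interaction test. Other genes were named after their values had been seen. Members and lists were chosen with earlier results of these data known. Alternatives covered arrays, lines and times left out, filters, background correction and normalization, centring, blocks, slide and scan occasion.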

Additional observations from a re-analysis of the deposited data

Results flagged for a closer look

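For RUNX2, a transcription factor of the BMP target list, the change of -0.49 in ZR-75-30 lay far from the other 4 lines, which were between -0.11 and 0.05. Among the 20 probes looked at in this way it was the 1 with a distant line, and chance gives such a gap in about 1 in 20 groups of values. The change of RUNX2 over all lines was -0.14 and did not pass the threshold.

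The change of HSPB9 differed between the lines (limma interaction adjusted p = 0.0134), with 2.92 in ZR-75-30 and 0.06 to 1.09 in the other 4 lines. The value of ZR-75-30 rests on its 6 h array, the one with the most probes changed at least 2-fold, and the probe could not be tested without that array, so the part of that array in the result was not tested.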

How the results depend on the processing

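The number of calls of the change moved with most settings, and with 1 array per line and time no setting has replicates of its own. Against the 5 calls there were 3 without the ZR-75-30 6 h array, 3 without a background filter, 294 over probes usable on all 20 arrays (177 higher, 117 lower), 226 over 11396 genes when the tested probes of a gene were averaged (109 higher, 117 lower), 1 without the cell line block and 2 in the first scan batch alone. There were 0 calls with normexp and median scaling (994 at an unadjusted p under 0.05), with 1 difference per line (4661) and in the second scan batch alone (634). The other 10 settings gave 4 to 7. Leaving out a line or a time gave 0 to 713, namely 0 without HCC1954 (3729 at an unadjusted p under 0.05), 3 without MDA-MB-231, 713 without MDA-MB-361 (423 higher, 290 lower), 2 without T-47D, 3 without ZR-75-30, 2 without 30 min (1 higher, 1 lower), 3 without 1 h, 0 without 3 h (3816) and 2 without 6 h. The causes were not tested.

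The level at 3 to 6 h had 498 calls with normexp and median scaling, and 2149 to 4033 when a line was left out, with 2232 without HCC1954, 2499 without MDA-MB-231, 2431 without MDA-MB-361 and 2149 without ZR-75-30. The level in the first hour had 595 to 5460, with 595 without HCC1954, 1460 without T-47D and 1985 without MDA-MB-231. The 6 h against 3 h test gave 0 calls under every setting run. The difference between lines had 0 calls without the ZR-75-30 6 h array, over probes usable on all 20 arrays and with normexp and median scaling, 2 with outlier spots kept, 20 with normexp and loess, and 0 to 48 when a line was left out (48 without T-47D, 4 without HCC1954, 0 without ZR-75-30).

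Normexp and median scaling moved the median change of all tested probes from 0.0090 to -0.12, and the changes of BAMBI (-0.00073), MSX2 (-0.0217), PMEPA1 (-0.10) and GATA3 (-0.15) were then below 0. In the second scan batch alone MSX2 (-0.24), PMEPA1 (-0.0573) and GATA3 (-0.19) were below 0. SMAD7 was above 0 without the ZR-75-30 6 h array (0.0406), with the series matrix values (0.0076), with slide as a random block (0.0036) and in the first scan batch alone (0.0350). When a line or time was left out, HES1 lay between -0.154 and 0.0107, PMEPA1 between -0.0138 and 0.0665, GATA3 between -0.0750 and 0.160, and SMAD7 between -0.174 and 0.162.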

Other observations

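The probes called higher and lower over all 20 arrays differed in gene length, a property that the test did not use. The 107 named genes called higher had a median length of 11893 bases in RefSeq (GRCh38.p14), the 110 called lower a median of 64424 bases, and the 9452 named genes tested on all 20 arrays a median of 27580 bases. The median log2 vehicle signal, which is the lower part of the tested ratio, was 12.7 for the 177 probes called higher. It was 9.43 for the 117 called lower and 10.02 for all 16365. The median ratio of the 177 went from -0.50 in the first hour to 0.23 at 3 to 6 h, and that of the 117 from 0.16 to -0.21. These are descriptions, and what they share with labelling or RNA quality was not tested. Promoter GC content could be read for part of the genes only: 74.8% of those called higher, 81.8% of those called lower and 82.1% of all. Its medians were 66.8%, 66.5% and 65.3% in the same order, and the differences were not tested.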
